A study of Canis lupus familiaris with 2 samples.

Results

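The genes described here are MYH11, MYL9, MYLK, DES and EDNRA. MYH11, MYL9 and MYLK are grouped here as largely confined to smooth muscle, although MYL9 and MYLK also serve non-muscle cells. DES and EDNRA are also expressed by heart muscle or other cells of the vessel wall. All 5 genes were chosen by measured values. Each had at least 1 probe set that was at least 2-fold higher in the lenti-miR-206 array of this study. Their direction and size are therefore a description and not an independent finding. The 5 genes are among 823 named genes in the deposited table, and they were read by 6 of its 1628 probe sets, a probe set being the group of short oligonucleotides that reads one transcript. DES had 2 of these probe sets and each of the other genes had 1. One more probe set is annotated both to MYL9 and to LOC491855, a pseudogene in the dog gene table, and it is reported separately.

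Total RNA was taken from the left superior fat pads (LSFPs), cushions of fat on the left atrium of the dog heart in which autonomic ganglia are embedded. The lenti-control group was injected with control lentivirus carrying a scramble sequence, and the lenti-miR-206 group with lentivirus that overexpresses miR-206. The study's methods give mongrel dogs of either sex, tissue 2 weeks after infection and no atrial tachypacing (A-TP) for groups of these names, whereas the labels give the time for the lenti-miR-206 group alone and do not mention A-TP. Each group is a pool of RNA from 3 dogs on 1 Affymetrix canine array. The sources used here give neither the promoter that drives miR-206 nor the cells that the lentivirus entered. A single array per group leaves the variation among dogs unmeasured, so the groups were not tested against each other and every difference below lacks a replicate check.

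Smooth muscle contracts when calcium and calmodulin activate myosin light chain kinase, which phosphorylates the regulatory light chain of myosin and so allows the myosin heavy chain to pull on actin. Endothelin, a peptide released mainly by the endothelium, is a strong vasoconstrictor and reaches this machinery through its type A receptor on smooth muscle cells. In the heart, smooth muscle lies in the walls of the coronary vessels, whereas desmin filaments are found both in smooth muscle and in cardiomyocytes, and endothelin type A receptors are also present on cardiomyocytes. An array of whole tissue cannot tell apart more cells of a type and more RNA per cell.

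The values are log2 intensities made with RMA, and a log2 difference is the lenti-miR-206 value minus the lenti-control value. All probe sets of the table differ by a log2 value of at least 1, so genes outside it are not analysed here and their differences are unknown. Among the controls, 13 probe sets for bacterial spike-in transcripts had a median log2 difference of -1.08, 5 probe sets for GAPDH had a median of 1.31, and 1 probe set for actin had 1.41. These references differ from each other, and none is shown to mark an unchanged level. They hold only control probe sets that passed the same 2-fold selection, so controls with smaller differences are not seen. The labelled tissue was checked against markers of its cell types. Of 9 adipocyte markers, 7 were in the table, with log2 values from 7.48 to 14.2 in the lenti-control array. Of 15 cardiomyocyte markers, 11 were in the table, with values from 6.28 to 13.1 in the same array, so transcripts of heart muscle were present in the control pool as well.

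All 5 genes were higher in the lenti-miR-206 array, and the median of their log2 differences was 1.70, or 3.26-fold. Of all probe sets 75.1% were higher, as were 74.2% of all named genes, and the choice of the members fixes their direction, so nothing is read from this count. With the brightest probe set, that of the highest mean over both arrays, standing for each gene, 4 of the 5 genes were at least 3-fold higher, against 20.5% of all named genes. Counted by probe set the number was 5 of 6, against 24.5% of all probe sets. Both shares also count the lower genes and probe sets, which could not be members. Among the higher ones, 169 of 611 named genes and 399 of 1223 probe sets were at least 3-fold higher. The members were chosen by values of the same contrast, so nothing is read from the 3-fold counts either. The median log2 difference of the 611 higher named genes was 1.30, or 2.47-fold.

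MYH11, the heavy chain of smooth muscle myosin and the most specific marker of mature smooth muscle among these genes, read 5.10 in the lenti-control array and 6.81 in the lenti-miR-206 array on the log2 intensity scale. The log2 difference was 1.70, or 3.26-fold higher. Its lenti-control value lay 2.15 above the lowest value of the table, 2.95, and may be background. The probe set carries the suffix s_at, which marks sets that can hybridize to several transcripts, so a contribution of other myosin heavy chains was not tested.

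MYL9, the regulatory light chain of smooth muscle and non-muscle myosin, read 9.50 in the lenti-control array and 11.14 in the lenti-miR-206 array, a log2 difference of 1.64, or 3.11-fold. The probe set shared with LOC491855 had values of 8.01 and 10.15, a log2 difference of 2.14, or 4.42-fold. Both readings thus pointed the same way, and the shared one was larger by a log2 value of 0.50.

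MYLK encodes the myosin light chain kinase of smooth muscle and non-muscle cells, the enzyme that phosphorylates the MYL9 product. Its log2 intensity was 7.48 in the lenti-control array and 9.44 in the lenti-miR-206 array. The log2 difference of 1.96, or 3.89-fold, was the largest of the 3 genes largely confined to smooth muscle, although these lay within 0.32 of each other.

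DES encodes desmin, the intermediate filament that links the contractile apparatus of muscle cells to the membrane and the nucleus. Its brighter probe set read 9.15 in the lenti-control array and 10.71 in the lenti-miR-206 array, a log2 difference of 1.56, or 2.96-fold. The other probe set, an s_at set, read 8.05 and 10.42, a log2 difference of 2.37, or 5.16-fold. The probe sets lay 1.10 apart in the lenti-control array and 0.30 apart in the lenti-miR-206 array, so their readings were closer in the lenti-miR-206 pool.

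EDNRA, the endothelin type A receptor, had the largest difference of the group. Its log2 intensity was 4.69 in the lenti-control array and 7.80 in the lenti-miR-206 array, a log2 difference of 3.11, or 8.65-fold. This placed it 8th from the top among the 1628 probe sets. The lenti-control value lay 1.74 above the lowest value of the table and may be background, as for MYH11, which leaves the size of the difference uncertain. The lenti-miR-206 value lay well away from that floor.

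**Figure D1:**
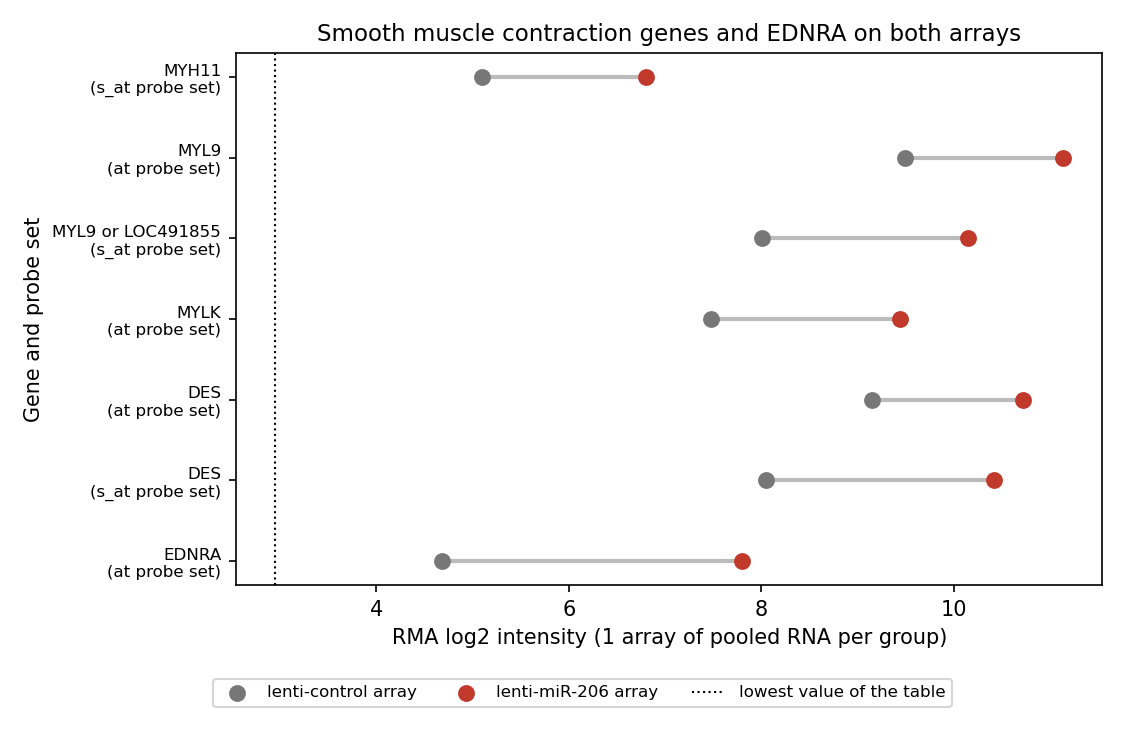
RMA log2 intensity (x axis) of each probe set of MYH11, MYL9, MYLK, DES and EDNRA, and of the set shared by MYL9 and LOC491855 (y axis), in the lenti-control array (grey) and the lenti-miR-206 array (red), joined by a line. Every red point lies to the right of its grey point, and the line of EDNRA, from 4.69 to 7.80, is the longest, starting close to the lowest value of the table (dotted line at 2.95).

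**Figure D2:**
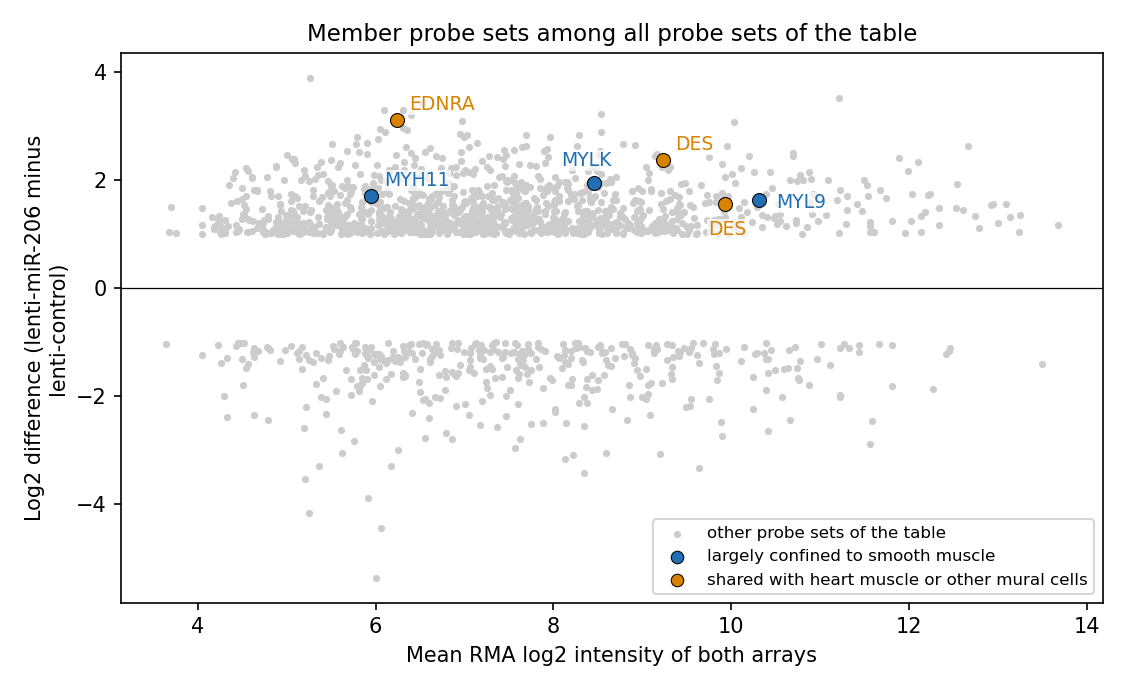
Log2 difference between the arrays (y axis) against the mean log2 intensity of both arrays (x axis) for the 1628 probe sets, with the genes largely confined to smooth muscle in blue and the shared genes in orange. The band between -1 and 1 is empty because of the 2-fold selection, the member probe sets lie between 1.56 and 3.11, and EDNRA lies near the upper edge.

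The genes largely confined to smooth muscle did not separate from the shared genes. MYL9, MYH11 and MYLK had log2 differences of 1.64, 1.70 and 1.96, with a median of 1.70. The shared genes lay on both sides of them, DES at 1.56 with its brighter probe set and EDNRA at 3.11, with a median of 2.34. The median of the smooth muscle genes was thus lower by a log2 value of 0.64. That gap depends on the dim probe sets, since without the probe sets that have a value under the 25th percentile of the table, 5.97, both EDNRA and MYH11 drop out and the gap turned to 0.23 in the other direction. Counted by probe set, the readings of DES, 1.56 and 2.37, enclosed all 3 of the smooth muscle genes. The groups therefore overlap, and the distance between the DES probe sets, 0.80, was larger than the whole range of the smooth muscle genes, 0.32.

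The spread between probe sets of one gene shows how far readings of the same RNA pools on the same arrays differ. It holds no variation between dogs or between repeated arrays, and it can include differences between the transcripts that the probe sets read. Of the members, DES alone had more than 1 probe set of its own. Of the named genes, 269 had more than 1 probe set, and the median distance between their highest and lowest log2 differences was 0.30, with a 90th percentile of 0.96. The distance of DES, 0.80 or 1.74-fold, was reached or exceeded by 43 of them, or 16.0%. Among the 196 genes whose probe sets were all higher, the brightest probe set had a smaller difference than the mean of the others in 123, or 62.8%, as it had for DES. Probe sets under 2-fold are outside the table, so the spread is likely too narrow. The 13 spike-in probe sets ranged from -1.17 to -1.001 and the 5 GAPDH probe sets from 1.16 to 1.43.

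**Figure D3:**
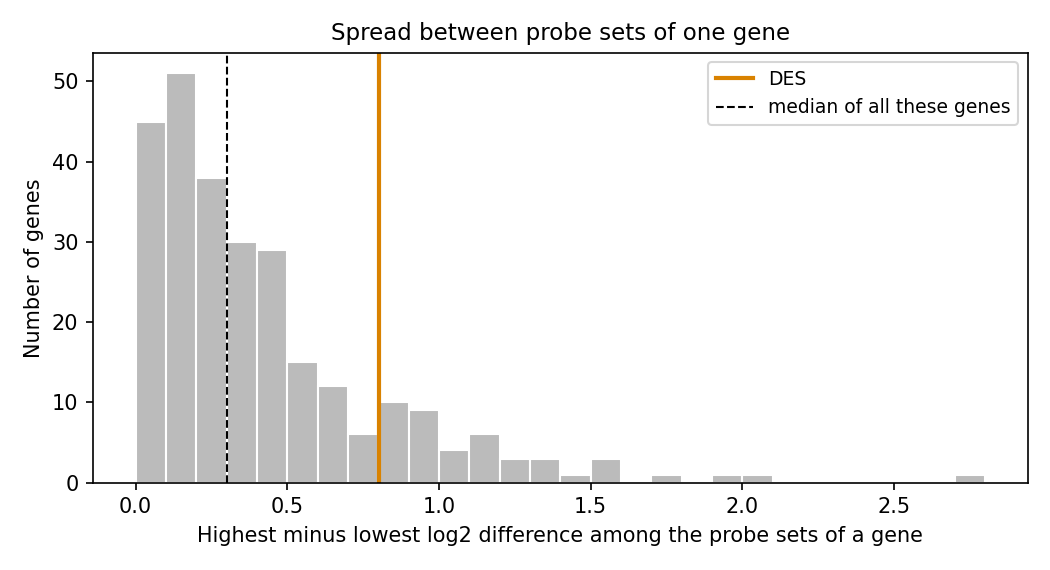
Number of genes (y axis) by the distance between the highest and the lowest log2 difference among the probe sets of a gene (x axis), for the 269 genes read by several probe sets. The distance of DES (orange line, 0.80) lies to the right of the median (dashed line, 0.30) and within the tail of the distribution.

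Another reference takes the same value from every probe set, so it changes the sizes and leaves their order as it was. Relative to the median of the GAPDH controls all 6 probe sets stayed higher, with log2 differences of 0.26 and 1.06 for DES, 0.33 for MYL9, 0.40 for MYH11, 0.65 for MYLK and 1.81 for EDNRA. Relative to the spike-in controls the differences grew, to between 2.64 for the brighter set of DES and 4.19 for EDNRA.

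Heart forms of the heavy chain, light chains and kinase that were in the table were higher too, as were 74.2% of all named genes. MYH6, MYL2 and MYL3, which are also among the cardiomyocyte markers, are not analysed here. For the heavy chain, MYH7, the slow myosin heavy chain of heart and skeletal muscle, had values of 11.76 and 12.93 with its brighter probe set, a log2 difference of 1.17, and 1.81 with its other probe set, beside the 1.70 of MYH11. For the light chains, MYL7, the atrial regulatory light chain, read 13.09 and 14.27, a log2 difference of 1.18, and MYL4, the atrial essential light chain, read 12.58 and 13.93, a log2 difference of 1.35. The 14.27 of MYL7 was the highest value of the table, and MYL9 had a log2 difference of 1.64. For the kinase, MYLK3, the cardiac myosin light chain kinase, read 9.36 and 11.51, a log2 difference of 2.15, and its other probe set had 2.81, beside the 1.96 of MYLK. MYL7 is a regulatory chain like MYL9, whereas MYL4 is not. These heart forms and the smooth muscle forms were higher together as deposited. Relative to the GAPDH controls MYH7, with its brighter probe set, and MYL7 turn lower. Whether the forms differed from each other was not tested.

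Other genes of the contractile apparatus were read in part. Of 30 genes of the smooth muscle thin filament and cytoskeleton, 9 were in the table, each of them higher, and their median was 1.46, or 2.75-fold, in a table in which 74.2% of all named genes were higher. CSRP2, a LIM domain protein of vascular smooth muscle outside the list and named after its values were seen, was lower at -1.32, so the count describes the listed genes alone. By the brightest probe sets the highest were FHL2, a LIM domain protein of muscle, at 1.80, and the tropomyosins TPM4 at 1.71 and TPM1 at 1.67. The other probe set of FHL2 had 1.42, and that of TPM4 had 1.24, which lies below the GAPDH median of 1.31. PDLIM5, also of this list, had 1.64 with its brighter probe set and 2.49 with its other, the largest reading of the list. The lowest were SMTN, the actin-binding protein smoothelin, at 1.32, DSTN, the actin-depolymerizing factor destrin, at 1.32 and the adaptor protein SORBS2 at 1.05. Among the brightest probe sets of the list, that of SORBS2 alone turns lower relative to the GAPDH controls. The lenti-control value of SORBS2, 5.56, may be background. Heart muscle also expresses TPM1, FHL2 and SORBS2. Of 8 other myosin II chains of smooth muscle and non-muscle cells, MYL6B alone was in the table, at 1.11, and it turns lower relative to the GAPDH controls. Of 24 genes of light chain phosphorylation and RhoA signalling, MYLK3 alone was in the table.

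Of 37 genes for calcium handling, channels and receptors of smooth muscle, 7 were in the table, 6 of them higher and 1 lower, with a median log2 difference of 1.48. The share of higher genes is near the 74.2% of all named genes and is not a result about this list. By the brightest probe sets KCNJ8, a potassium channel subunit of vascular smooth muscle and pericytes, was highest at 1.88. Next were PLN, the phospholamban that restrains the calcium pump of the sarcoplasmic reticulum, at 1.81 and GUCY1A1 at 1.66. The other probe sets of PLN had 2.45 and 2.40, above the reading of KCNJ8. GUCY1A1, GUCY1A2 and GUCY1B1 encode subunits of the soluble guanylate cyclase, the nitric oxide receptor through which smooth muscle relaxes. The log2 intensity of GUCY1A1 was 5.45 in the lenti-control array, which may be background, and 7.11 in the lenti-miR-206 array. GUCY1B1 read 7.66 and 9.09, a log2 difference of 1.43, and GUCY1A2 read 6.16 and 7.59, also 1.43. The gene that was lower was PTGER3, a prostaglandin E2 receptor, with 6.80 and 5.48 and a log2 difference of -1.32. Its lenti-miR-206 value may be background. ATP2A2, the calcium pump SERCA2, was 1.48 higher with its brighter probe set and is, like PLN, abundant in heart muscle. The other probe sets of ATP2A2 and GUCY1A2 had 1.24 and 1.19, below the GAPDH median of 1.31.

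None of the other 19 genes listed for the endothelin system was in the table, among them the ligands EDN1, EDN2 and EDN3, the converting enzymes ECE1 and ECE2, the type B receptor EDNRB and the G proteins GNAQ and GNA11. They are not analysed here, so the large difference of EDNRA stands without a reading of its ligand or of its companion receptor. Of 24 genes of smooth muscle transcription control, 3 were in the table and higher, PRRX1 at 1.08, MEF2C at 1.06 and the Notch ligand JAG1 at 1.01, and all 3 turn lower relative to the GAPDH controls. Both values of JAG1, 3.75 and 4.76, may be background, as may the lenti-control value of MEF2C, 5.33. MYOCD and SRF, which activate contractile genes of smooth muscle, are not analysed here. Of 18 partners of desmin, 4 were in the table and higher. NEBL, the nebulette of the cardiac Z-disc, was at 2.25 and the chaperone CRYAB, which binds desmin, at 1.94. DMD, the dystrophin gene, was at 1.37 with its brighter probe set and at 1.26 with its other, which lies below the GAPDH median of 1.31. The desmosome protein PKP2 was at 1.08, which turns lower relative to the GAPDH controls. The lenti-control values of NEBL and PKP2, 4.21 and 4.46, may be background.

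Markers of cell types moved beside these genes, in a table in which 74.2% of all named genes were higher and the rest lower. TAGLN, SMTN and KCNJ8 were also counted in the lists above. Of 9 vascular smooth muscle markers other than MYH11, 2 were in the table, TAGLN, which encodes transgelin, at 1.46 and SMTN at 1.32. ACTA2, the smooth muscle actin, was read by a probe set annotated both to it and to ACTA1, the skeletal muscle actin that heart also expresses, so its signal cannot be given to either gene. That set had values of 11.16 and 12.90, a log2 difference of 1.74. CNN1, LMOD1, MYOCD, ACTG2, CALD1 and SYNPO2 are not analysed here. Of 11 pericyte and mural cell markers KCNJ8 alone was in the table, at 1.88, while ENPEP, which is also found on pericytes and was named after its values were seen, was lower at -1.12, and PDGFRB, RGS5, NOTCH3, CSPG4 and MCAM are not analysed here. Each of the 11 cardiomyocyte markers in the table was higher, with a median of 1.44 and a range from 1.17 to 2.83. The highest were NPPB, TNNT2 and RYR2 at 2.83, 1.92 and 1.76 and the lowest MYH7, MYL7 and TNNI3 at 1.17, 1.18 and 1.34, of which MYH7 and MYL7 turn lower relative to the GAPDH controls. The differences of MYH11, MYL9, MYLK and DES lay within that range, and that of EDNRA lay above it. NPPB alone forms the upper end of the range, and MYLK, at 1.96, lay above TNNT2, the next highest marker. These are the brightest probe sets. Other probe sets of TNNT2 and ACTC1 reached 2.34 and 2.41, beside 2.37 for the other set of DES. Of 10 skeletal muscle markers, ACTA1, with probe sets of its own, and TNNT1 were in the table, at 1.74 and 2.13. All 7 adipocyte markers in the table were lower, with a median of -2.29, the lowest being CIDEA, FASN and CIDEC at -2.87, -2.74 and -2.47 and the least low LEP, FABP4 and ADIPOQ at -1.12, -1.40 and -1.87. All 4 of 8 fibroblast and matrix markers in the table were lower, FN1, COL1A2, COL1A1 and COL3A1 at -1.42, -1.35, -1.31 and -1.11. Relative to the spike-in controls these 4 shrink to -0.34, -0.27, -0.24 and -0.03. LEP shrinks to -0.05 in the same way, whereas the median of the adipocyte markers is then -1.21. The endothelial marker MMRN1, 1 of 7 listed, was lower at -1.15, and at -0.08 relative to the spike-in controls. Its lenti-miR-206 value of 4.57 may be background. The neuron markers CHGB, SNAP25 and STMN2 and the glia marker S100B were lower as well, at -4.43, -3.52, -2.56 and -2.96 with their brightest probe sets. The other probe set of S100B had only -1.19 and that of STMN2 had -3.29, and the smallest fall among the sets of CHGB was -2.43. The lenti-miR-206 values of CHGB and SNAP25, 3.84 and 3.45, may be background. The macrophage marker LYZ was higher at 1.13, turning to -0.18 relative to the GAPDH controls. The part of these cell types in the differences of the 5 genes was not tested, and a difference in the share of heart wall or vessel wall in the pooled tissue and an effect of miR-206 cannot be told apart with 1 array per group.

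**Figure D4:**
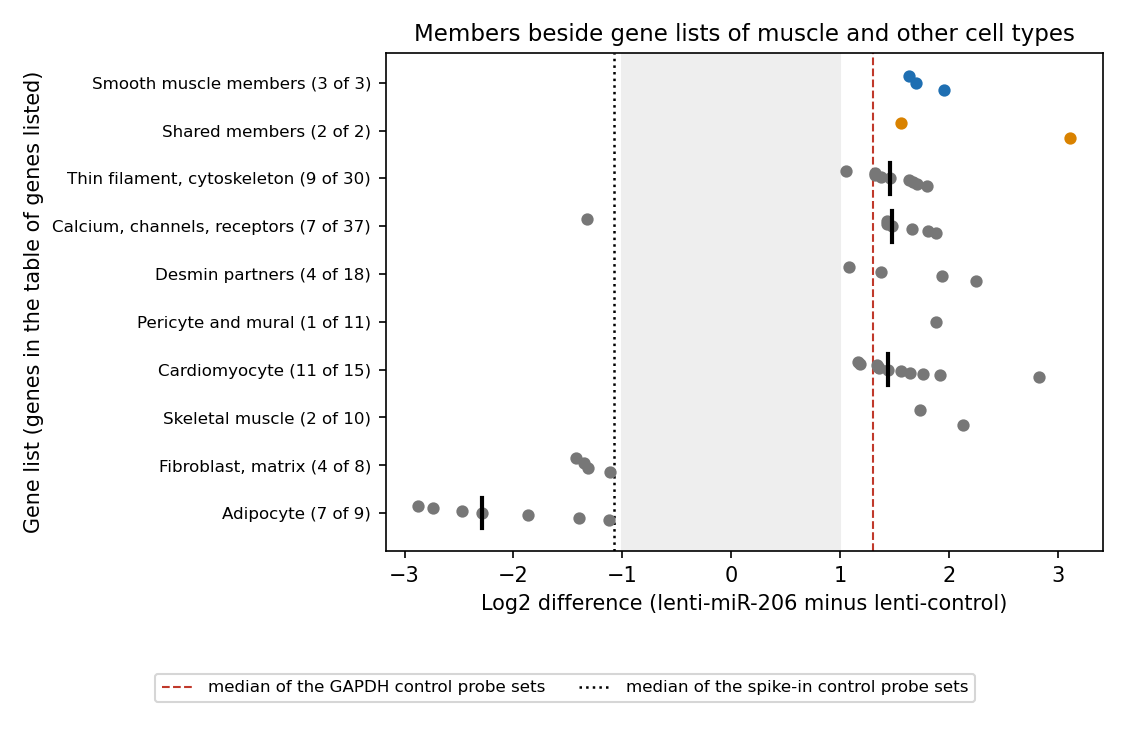
Log2 difference between the arrays (x axis) for the genes of each list (y axis, with the number in the table of the number listed), each point being the brightest probe set of a gene and black bars being medians of lists with at least 5 genes. The smooth muscle genes (blue, 1.64 to 1.96) lie within the range of the cardiomyocyte markers (1.17 to 2.83), whose upper end is NPPB alone. The next highest of these markers, TNNT2, is at 1.92, below MYLK. EDNRA (orange, 3.11) lies above the range, and the adipocyte and fibroblast markers lie on the lower side. Dashed and dotted lines mark the GAPDH (1.31) and spike-in (-1.08) medians.

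The genes with the most similar pair of values were found by the straight-line distance between log2 intensities over these 2 arrays, which says nothing of shared function. For MYL9 they were PDLIM5, a PDZ and LIM domain protein of the Z-disc, the muscle phosphofructokinase PFKM and the copper chaperone COX17, at distances of 0.0070, 0.012 and 0.097. For DES they were RABGAP1L, the ankyrin ANK3 and the autophagy protein MAP1LC3A, at 0.062, 0.079 and 0.095. For MYH11 they were YIPF7, the actin-oxidizing enzyme MICAL2 and LOC609874, at 0.088, 0.17 and 0.17. For MYLK they were TRMT11, DHRS7C and GRTP1, at 0.15, 0.18 and 0.20. For EDNRA they were CMBL, the muscle methyltransferase SMYD1 and the calcium-binding protein TESC, at 0.14, 0.20 and 0.23.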

How the data were processed

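The authors deposited log2 intensities, which their processing notes give as made with RMA, which subtracts background, makes arrays comparable and combines the probes of each set. Its software version and the set of arrays it was run on are not stated in the sources used here. The table holds 1628 probe sets and 19 controls with a log2 difference of at least 1. RMA assumes that most transcripts are alike on both arrays and compresses differences at both ends of the scale. No detection calls were used, so values under the 25th percentile of the table, 5.97, may be background also where this is not said. The precision is limited by 1 array per group.

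Differences and folds were computed with pandas 2.3.3 and numpy 2.4.6 under Python 3.11.15, figures were made with matplotlib 3.10.9, and the summaries were tested on simulated data. Of the probe sets, 1182 had 1 gene symbol, 22 several and 424 none. Symbols were updated through Entrez identifiers for 1102 probe sets with the gene table of the assembly UU_Cfam_GSD_1.0, and 80 kept the platform's symbol. Where a gene had several probe sets, that of the highest mean stood for it. The members and the 17 gene lists were chosen with earlier results of these data known. Named are all member probe sets, the 3 highest and 3 lowest genes of each list (all where at most 6 were in the table) and the 3 nearest genes of each member. Other genes named with values were chosen after their values were seen. No test was made. The alternatives were both control references, other ways of choosing a probe set, leaving out s_at and x_at or dim probe sets, and 3-fold. A value was taken as moved when it shifted by over 1.5-fold, since no replicate spread exists.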

Additional observations from a re-analysis of the deposited data

How the results depend on the processing

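No paired analysis was possible because each group has 1 array. With the spike-in and then the GAPDH controls as reference, the log2 differences were 2.64 and 0.26 for the brighter probe set of DES, 3.44 and 1.06 for its other probe set, 4.19 and 1.81 for EDNRA, 2.78 and 0.40 for MYH11, 2.71 and 0.33 for MYL9 and 3.04 and 0.65 for MYLK. The list medians became 2.53 and 0.15 for the thin filament and cytoskeleton, 2.56 and 0.17 for calcium, channels and receptors, 2.52 and 0.13 for cardiomyocyte and -1.21 and -3.59 for adipocyte markers. No sign turned in these values, and a shift of the reference leaves the distances between genes as they are. The gap between the smooth muscle and the shared genes, -0.64, was -0.84 with the mean of all probe sets, -1.04 with the largest difference of each gene and -0.54 without s_at and x_at probe sets. It turned to 0.23 without dim probe sets, where 3 genes are left and EDNRA and MYH11 drop out. With the probe set shared with LOC491855 standing for MYL9, chosen after seeing the data, the gap was -0.38. The depth of the arrays limits MYH11 and EDNRA most, whose lenti-control values are close to the lowest of the table.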

Other observations

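Further genes of vessel tone and of the actin cytoskeleton outside the lists were in the table, named after their values were seen and with no replicate check. RAMP1, a subunit of the receptor for the vasodilator CGRP, read 8.28 in the lenti-control array and 9.40 in the lenti-miR-206 array, a log2 difference of 1.12. NPR3, the clearance receptor for natriuretic peptides, was 1.63 higher with its brighter probe set and 1.22 with its other. The phosphodiesterases PDE1C and PDE3A, which break down cyclic nucleotides, were 1.06 and 1.08 higher, and the adenylate cyclase ADCY5, abundant in heart, was 1.25 higher. The lenti-control values of NPR3, PDE3A and PDE1C, 4.86, 4.92 and 5.24, may be background. RAMP1, PDE1C, PDE3A and ADCY5 turn lower relative to the GAPDH controls, at -0.19, -0.25, -0.23 and -0.059, whereas NPR3 stays higher at 0.32. ABRA, an actin-binding activator of RhoA signalling in striated muscle, was 1.63 higher, and PGM5, a protein of muscle adhesion sites, was 1.29 higher, the latter turning to -0.012 relative to the GAPDH controls.

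Of the genes outside the lists, CSRP2 and ENPEP were lower. CSRP2 read 8.99 and 7.67, a log2 difference of -1.32, and -1.26 with its other probe set. ENPEP, an aminopeptidase that cleaves angiotensin II and is found on pericytes, read 7.20 and 6.08, a log2 difference of -1.12. Relative to the spike-in controls these stay lower at -0.24 and -0.042.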
